A study of Mus musculus with 12 samples.

Results

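Aim2 and 8 genes of the Ifi200 family (Ifi202b, Ifi203, Ifi204, Ifi206, Ifi208, Ifi209, Ifi213 and Ifi214) were followed across 12 expression arrays of mouse bone marrow B-cell precursors. The tissue label is pro-B cells, an early committed stage, for all 12, but the titles use that name for WT alone. The arrays were Affymetrix Mouse Gene 1.0 ST, which summarises the probes of a gene into a transcript cluster, and each value below is a log2 signal, so that 1 unit is a 2-fold difference. The 3 groups hold 4 arrays each: WT pro-B cells, Pax5+/- cells that carry 1 altered copy of Pax5, and Cd72+/-;Pax5+/- cells that carry 1 altered copy of each gene. Pax5 is the transcription factor that commits cells to the B lineage, and Cd72 a co-receptor that dampens signals of the B-cell receptor. The mice were 1 month old and kept free of specific pathogens; the titles name both mutant groups as preleukemic precursors. The labels do not give strain, sex, the altered part of each gene, or whether each array stands for its own animal. The Ifi200 stretch is known to differ between inbred strains in gene content and expression, and whether the groups share a strain background was not tested. The p-values below therefore weigh differences against array-to-array spread alone, and that spread may be technical.

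Of the 28944 clusters on the array, 23410 carry a gene symbol, and the members were taken from these by symbol. 8 of the 9 genes have exactly 1 cluster of their own. Ifi204 is measured only through a cluster that also carries the symbol Ifi211, so its signal cannot be told apart from that of Ifi211. The 9 genes were chosen by their measured differences between these 3 groups as well as by family. Their differences are therefore given as a description, with the standard error (SE) of a model fitted to all clusters and with no test. The probe positions were not used here, so for near-identical copies the part of the signal that comes from each copy cannot be told apart.

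These genes belong to the PYHIN family, whose proteins combine a pyrin domain, which binds other pyrin domains, with HIN domains, which bind double-stranded DNA. Aim2 senses DNA in the cytosol: it recruits the adaptor Pycard (ASC), which recruits caspase-1, and the complex, an inflammasome, matures interleukin-1 beta and interleukin-18 and opens gasdermin D pores. In the mouse, Aim2 and the Ifi200 genes lie side by side on chromosome 1, in a cluster of tandem copies, and many of the Ifi200 genes are known as interferon-inducible. Some members have lost a domain: Ifi202b has HIN domains and no pyrin domain, and is known to restrain Aim2 by competing for DNA.

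Promoter sequences show how closely these tandem copies are related. RefSeq promoter entries (assembly GRCm38.p6, 250 bases before to 50 after the annotated start) were found for 8 of the 9 genes, with 2 starts for Ifi203. The stretches printed here are the 150 bases just before the start, read 5′ to 3′ on the strand of the gene. They are shown because the genes fall into groups of near-identical promoters, and the order below follows those groups. Capitals mark a searched motif: GAAANNGAA, part of the element bound by interferon-activated factors (ISRE-like), TTCNNNGAA, bound by STAT dimers (GAS-like), or GAGGAAGT, bound by the ETS factor PU.1 (PU.1-like). Each was searched on both strands of the 300 bases.
Ifi206 (chr1:173491319-173491468, minus strand): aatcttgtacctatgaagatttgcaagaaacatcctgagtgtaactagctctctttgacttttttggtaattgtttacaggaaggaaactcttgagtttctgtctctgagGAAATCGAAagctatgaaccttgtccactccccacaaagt
Ifi213 (chr1:173599273-173599422, minus strand): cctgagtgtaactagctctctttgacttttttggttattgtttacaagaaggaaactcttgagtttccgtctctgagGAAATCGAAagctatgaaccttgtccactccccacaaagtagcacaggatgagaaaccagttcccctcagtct
Ifi208 (chr1:173673515-173673664, plus strand): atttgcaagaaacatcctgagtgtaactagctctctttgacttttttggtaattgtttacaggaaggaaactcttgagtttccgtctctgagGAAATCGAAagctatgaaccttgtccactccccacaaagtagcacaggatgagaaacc
Ifi214 (chr1:173535958-173536107, minus strand): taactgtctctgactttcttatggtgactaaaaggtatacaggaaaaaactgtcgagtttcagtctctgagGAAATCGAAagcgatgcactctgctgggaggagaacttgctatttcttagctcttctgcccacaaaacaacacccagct
Ifi209 (chr1:173630709-173630858, plus strand): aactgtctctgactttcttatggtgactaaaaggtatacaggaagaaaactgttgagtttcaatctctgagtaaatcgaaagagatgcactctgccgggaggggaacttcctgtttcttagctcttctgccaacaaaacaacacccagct
Ifi203, the start that holds the motif (chr1:173942493-173942642, minus strand): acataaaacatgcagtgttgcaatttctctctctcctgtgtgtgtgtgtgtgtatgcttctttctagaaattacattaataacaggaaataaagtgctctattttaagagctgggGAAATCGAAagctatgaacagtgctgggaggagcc
Aim2 (chr1:173420454-173420603, plus strand): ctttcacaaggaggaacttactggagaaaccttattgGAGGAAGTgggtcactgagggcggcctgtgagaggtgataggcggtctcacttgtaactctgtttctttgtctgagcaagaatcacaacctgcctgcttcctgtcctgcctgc
Ifi202b (chr1:173982845-173982994, minus strand): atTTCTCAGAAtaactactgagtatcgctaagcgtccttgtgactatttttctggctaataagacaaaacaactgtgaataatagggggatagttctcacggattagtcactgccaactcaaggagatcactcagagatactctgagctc

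The ISRE-like letters were found in 5 of the 8 genes (Ifi206, Ifi213, Ifi208, Ifi214 and Ifi203), each time as GAAATCGAA, against 8.56% of all 32851 RefSeq promoters and 9.76% of the 27025 genes they belong to. Aligned to Ifi214, the Ifi209 promoter has the substitution G1T in these letters, counted from 1 at the 5′ end of the match, and so reads TAAATCGAA. The PU.1-like letters were found only in Aim2 among the 8 genes (3.2% of all promoters) and the GAS-like letters only in Ifi202b (8.3%). A match is a description of these letters and not a measured binding site.

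Over the 300 bases, the promoters form a set of 3 and a pair. Ifi206, Ifi208 and Ifi213 were 87.7% to 94% identical to each other, and Ifi214 was 95.7% identical to Ifi209. Between the set and the pair, identity was at most 64% (Ifi214 against Ifi208), and the lowest identity of any 2 entries was 46.7% (Aim2 against Ifi203). The set of 3 was higher and the pair lower in Cd72+/-;Pax5+/- than in Pax5+/- cells, as described next. Against WT, Ifi214 was lower too, and Ifi209 lay within the WT spread. Both Ifi214 and the set of 3 carry the same ISRE-like letters.

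Some facts of the whole series bear on every result. Pax5 itself, the targeted gene of both mutants, had means of 11.57 (WT), 10.97 (Pax5+/-) and 11.21 (Cd72+/-;Pax5+/-), and fell in Pax5+/- cells (limma adjusted p = 0.0051). Its level in Cd72+/-;Pax5+/- cells did not pass against WT (limma adjusted p = 0.0781) or against Pax5+/- (0.252). Cd72 had means of 8.90, 10.19 and 7.51, rising 2.44-fold in Pax5+/- over WT (limma adjusted p = 0.000827). It was lower in Cd72+/-;Pax5+/- cells than in WT (limma adjusted p = 0.000492) and in Pax5+/- cells (1.41e-06). The B-lineage markers Cd79a, Vpreb1 and Igll1 lay between 12.21 and 13.02 in every group mean, and 75% of clusters had a mean under 8.858. Among the 13 B-lineage markers measured, limma called Cd93 and Ebf1 higher and Cd79a lower in Pax5+/- than in WT. Ebf1 was called higher and Dntt lower in Cd72+/-;Pax5+/- than in WT. Between the mutants, Cd79a was called higher and Cd93 and Dntt lower in Cd72+/-;Pax5+/-. Arrays within a group were not equally alike: WT arrays 1 and 3, and 2 and 4, had 0 clusters over 2-fold apart, while the other WT pairs had 216 to 242. In Pax5+/-, too, arrays 1 with 3 and 2 with 4 were closest (12 and 5 clusters against 50 to 220). Xist, transcribed from the inactive X chromosome in females, lay at 11.75 to 11.90 in the Cd72+/-;Pax5+/- group against 5.00 to 5.52 in WT and Pax5+/-, and the Y-linked Uty went the reverse way (4.88 to 5.19 against 8.85 to 9.74), so that this genotype and sex cannot be told apart in any comparison with the Cd72+/-;Pax5+/- group.

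Aim2, the cytosolic DNA sensor, was lower in both mutant groups and lowest where both genes were altered. It read 10.23, 10.10, 10.21 and 10.17 on WT arrays 1 to 4, then 9.39, 9.56, 9.44 and 9.63 on the Pax5+/- arrays and 7.48, 7.65, 7.88 and 7.93 on the Cd72+/-;Pax5+/- arrays. The 3 groups formed 3 separate steps with no overlap. The means were 10.18 ± 0.0574, 9.51 ± 0.11 and 7.74 ± 0.209 (SD, n = 4 each). Aim2 was thus 1.59-fold lower in Pax5+/- than in WT (log2 difference -0.67, SE 0.0915), 5.43-fold lower in Cd72+/-;Pax5+/- than in WT (-2.44) and 3.41-fold lower in Cd72+/-;Pax5+/- than in Pax5+/- (-1.77). The 4 WT arrays of Aim2 lay within 0.13 of each other, with arrays 1 and 3 slightly above 2 and 4. In Pax5+/-, arrays 1 and 3 lay below 2 and 4, over a range of 0.24.

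Ifi202b, the antagonist without a pyrin domain, was also highest in WT and lowest in Cd72+/-;Pax5+/- cells. Its WT arrays read 7.03, 8.15, 7.27 and 8.00, its Pax5+/- arrays 6.41, 5.50, 6.03 and 5.25, and its Cd72+/-;Pax5+/- arrays 5.06, 4.86, 4.82 and 4.87. The groups did not overlap, though both the WT and the Pax5+/- arrays fell into the pairs 1 with 3 and 2 with 4, in opposite order: arrays 2 and 4 were the higher in WT and the lower in Pax5+/-. The means were 7.61 ± 0.546, 5.80 ± 0.522 and 4.90 ± 0.107 (SD, n = 4 each). The difference from WT was 3.52-fold in Pax5+/- (log2 -1.81, SE 0.269) and 6.54-fold in Cd72+/-;Pax5+/- (-2.71), and that between the mutants 1.86-fold (-0.90). In Cd72+/-;Pax5+/- cells the signal lay near 4.913, the level under which 10% of all clusters have their mean, so a lower level there may not be measurable.

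**Figure D1:**
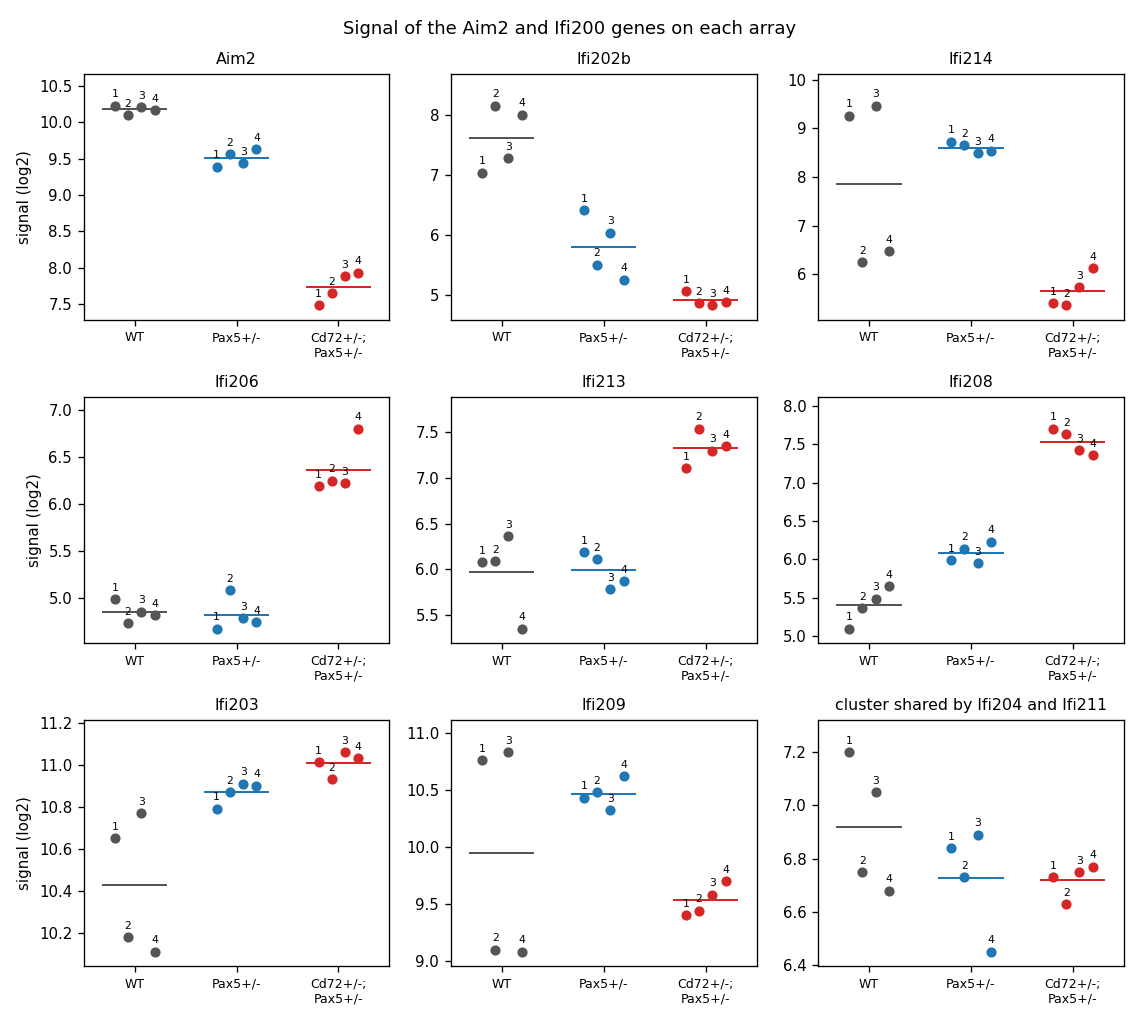
Log2 signal (y axis, own range per panel) of each member on each array (points, numbered by replicate), with the group mean as a line, for WT, Pax5+/- and Cd72+/-;Pax5+/- (x axis). Aim2 steps down from 10.18 to 9.51 to 7.74, Ifi206, Ifi213 and Ifi208 are highest on the Cd72+/-;Pax5+/- arrays, and Ifi214, Ifi209 and Ifi203 separate WT arrays 1 and 3 from 2 and 4.

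Ifi206, Ifi213 and Ifi208, the set of 3 with near-identical promoters, were all higher in Cd72+/-;Pax5+/- cells. Ifi206 read 4.99, 4.74, 4.86 and 4.82 in WT, 4.68, 5.09, 4.79 and 4.75 in Pax5+/-, and 6.19, 6.25, 6.22 and 6.80 in Cd72+/-;Pax5+/-. WT and Pax5+/- overlapped close to that same 10% level of the array (means 4.85 ± 0.104 and 4.83 ± 0.181), and all 4 Cd72+/-;Pax5+/- arrays lay above both (6.37 ± 0.291, SD, n = 4). The difference was 2.85-fold over WT (log2 1.51, SE 0.13) and 2.90-fold over Pax5+/- (1.54). Replicate 4 of Cd72+/-;Pax5+/- stood above the other 3.

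Ifi213, also named Pydc4, showed the same order. Its arrays read 6.08, 6.09, 6.36 and 5.35 in WT, 6.19, 6.11, 5.78 and 5.87 in Pax5+/-, and 7.11, 7.54, 7.30 and 7.35 in Cd72+/-;Pax5+/-. The first 2 groups overlapped (means 5.97 ± 0.433 and 5.99 ± 0.194, with WT replicate 4 the lowest array) and the third lay above both (7.33 ± 0.177, SD, n = 4). The log2 difference of Cd72+/-;Pax5+/- was 1.36 from WT (2.56-fold, SE 0.18) and 1.34 from Pax5+/- (2.53-fold).

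Ifi208, also named Pydc3, differed from these neighbours in that Pax5+/- cells were already above WT. It read 5.10, 5.37, 5.49 and 5.65 in WT, 5.99, 6.14, 5.95 and 6.23 in Pax5+/-, and 7.70, 7.63, 7.42 and 7.36 in Cd72+/-;Pax5+/-, with no overlap between any groups. The means were 5.40 ± 0.232, 6.08 ± 0.13 and 7.53 ± 0.163 (SD, n = 4 each). Against WT, Ifi208 was 1.60-fold higher in Pax5+/- (log2 0.68, SE 0.114) and 4.36-fold higher in Cd72+/-;Pax5+/- (2.13), and the mutants differed 2.73-fold (1.45). Its steps ran in the same group order as those of Aim2, upward instead of downward.

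Ifi214 and Ifi209, the pair with near-identical promoters, were lower in Cd72+/-;Pax5+/- than in Pax5+/- cells and were uneven within WT. Ifi214 read 9.26, 6.25, 9.47 and 6.48 in WT, 8.73, 8.65, 8.49 and 8.54 in Pax5+/-, and 5.40, 5.36, 5.73 and 6.12 in Cd72+/-;Pax5+/-. WT arrays 1 and 3 lay above every Pax5+/- array and WT arrays 2 and 4 lay below every one, close to the Cd72+/-;Pax5+/- arrays but above them all. The means were 7.87 ± 1.74, 8.60 ± 0.108 and 5.65 ± 0.353 (SD, n = 4 each). Between the mutants, whose arrays did not overlap, Ifi214 was 7.73-fold lower in Cd72+/-;Pax5+/- (log2 -2.95, SE 0.621), which gave it the widest range of group means among the 8 members. Against WT, Cd72+/-;Pax5+/- was 4.63-fold lower (-2.21), but the difference was -3.71 with WT arrays 1 and 3 alone and -0.71 with 2 and 4 alone. Pax5+/- minus WT was 0.74, within the spread of WT, and took either sign: -0.76 with WT arrays 1 and 3 and 2.24 with 2 and 4.

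Ifi209, also named Pyhin1, had the same split of WT. It read 10.76, 9.10, 10.83 and 9.08 in WT, 10.43, 10.48, 10.32 and 10.62 in Pax5+/-, and 9.40, 9.44, 9.58 and 9.70 in Cd72+/-;Pax5+/-. The arrays of the mutants did not overlap, and WT reached above and below both. The means were 9.94 ± 0.985, 10.46 ± 0.124 and 9.53 ± 0.137 (SD, n = 4 each), and the mutants differed 1.91-fold (log2 -0.93, SE 0.352). The differences from WT were within its spread, and both turned with the WT arrays used: 0.52 in Pax5+/- (-0.33 with arrays 1 and 3, 1.37 with 2 and 4) and -0.41 in Cd72+/-;Pax5+/- (-1.26 and 0.44).

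Ifi203 had the narrowest range of group means of the 8. It read 10.65, 10.18, 10.77 and 10.11 in WT, 10.79, 10.87, 10.91 and 10.90 in Pax5+/-, and 11.01, 10.93, 11.06 and 11.03 in Cd72+/-;Pax5+/-. No groups overlapped, but the gaps were narrow: 0.02 both between the highest WT and the lowest Pax5+/- array and between the highest Pax5+/- and the lowest Cd72+/-;Pax5+/- array. The means were 10.43 ± 0.331, 10.87 ± 0.0544 and 11.01 ± 0.0556 (SD, n = 4 each). Ifi203 was 1.36-fold higher in Pax5+/- than in WT (log2 0.44, SE 0.124), 1.49-fold higher in Cd72+/-;Pax5+/- than in WT (0.58) and 1.10-fold higher between the mutants (0.14). With WT arrays 1 and 3 alone the differences from WT were 0.16 and 0.30, and with 2 and 4 alone 0.72 and 0.86.

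Ifi204, a regulator of cell growth and differentiation and a DNA sensor, is seen only through the cluster it shares with Ifi211. That cluster read 7.20, 6.75, 7.05 and 6.68 in WT, 6.84, 6.73, 6.89 and 6.45 in Pax5+/-, and 6.73, 6.63, 6.75 and 6.77 in Cd72+/-;Pax5+/-. All 3 groups overlapped, with means of 6.92 ± 0.246, 6.73 ± 0.197 and 6.72 ± 0.0622 (SD, n = 4 each). The log2 differences were -0.19, -0.20 and -0.01 (SE 0.117), the last of which was 0.02 after quantile normalization.

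Counted together, the 8 members with their own cluster were split in direction. In Pax5+/- against WT, 2 were higher without overlap (Ifi208 and Ifi203) and 2 lower (Aim2 and Ifi202b), where 5.84% and 4.87% of all clusters with a symbol were higher and lower in this way. Cd72+/-;Pax5+/- against WT gave 4 higher (Ifi206, Ifi213, Ifi208 and Ifi203) and 3 lower (Aim2, Ifi214 and Ifi202b), with 7.61% and 7.23% over all clusters. Between the mutants, the same 4 were higher in Cd72+/-;Pax5+/- and 4 were lower (Aim2, Ifi214, Ifi209 and Ifi202b), with 9.59% and 8.91% over all clusters. These values had a part in choosing the members and the comparisons share groups, so nothing is read from the counts. The median log2 difference of the members was 0.23, 0.08 and -0.38 in the 3 comparisons (all clusters: -0.005, 0.0025 and 0.005), while the median of the size without sign was 0.60, 1.82 and 1.39 (all clusters: 0.0675, 0.07 and 0.075).

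**Figure D2:**
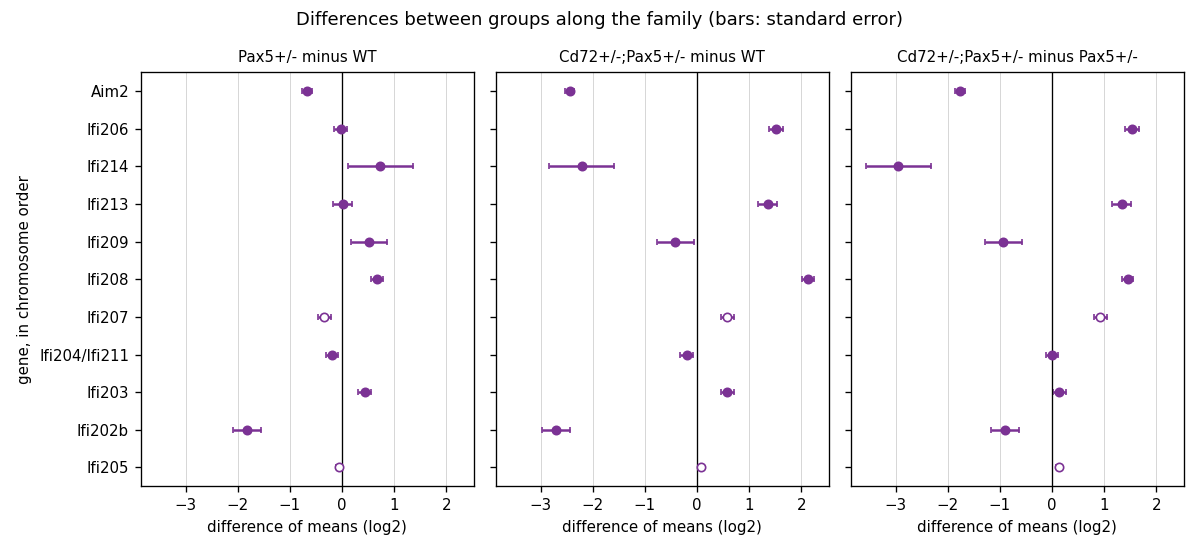
Log2 difference of group means (x axis) with its standard error (bars) for each gene of the family in chromosome order (y axis), in 3 comparisons; filled points are the listed members, open points are Ifi207 and Ifi205, and Ifi204 shares its point with Ifi211. From Aim2 (-1.77) and Ifi206 (1.54) to Ifi208 (1.45), genes below and above 0 alternate in Cd72+/-;Pax5+/- minus Pax5+/-; against WT, the point of Ifi209 (-0.41) lies within the spread of WT.

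Only 2 other genes of the family had a cluster of their own. Ifi207 read 7.18, 7.05, 7.48 and 7.12 in WT, 6.81, 6.65, 7.23 and 6.77 in Pax5+/-, and 7.90, 7.65, 7.91 and 7.70 in Cd72+/-;Pax5+/-, the last above all other arrays. It rose in Cd72+/-;Pax5+/- against Pax5+/- (log2 0.93, SE 0.125, limma adjusted p = 0.00031) and against WT (0.58, adjusted p = 0.0115), the latter no longer so when the closest pairs of arrays were averaged (adjusted p = 0.1805). Pax5+/- minus WT was -0.34 (limma adjusted p = 0.142). Ifi205 had means of 4.96, 4.90 and 5.04 and passed in no comparison (limma adjusted p of 0.724, 0.569 and 0.211), close to the level under which 10% of clusters lie.

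Along chromosome 1 the genes run, in RefSeq order and leaving out pseudogenes and genes with no cluster, Aim2, Ifi206, Ifi214, Ifi213, Ifi209, Ifi208, Ifi207, Ifi204, Ifi211, Ifi203 and Ifi202b, with Ifi205 beyond. Between Cd72+/-;Pax5+/- and Pax5+/- cells the direction alternated from gene to gene over the first 6: Aim2 lower, Ifi206 higher, Ifi214 lower, Ifi213 higher, Ifi209 lower and Ifi208 higher. Against WT the same held except for Ifi209, whose difference was within the WT spread. No tested gene of another family lies inside the stretch. The 3 nearest tested genes before it (Cadm3, Ackr1 and Fcer1a) had log2 differences between -0.02 and 0.07 in the 3 comparisons and none passed. Of the 3 after it, Mptx1 and Rgs7 passed in none and Fmn2 in all 3 (-0.48, 0.23 and 0.71, limma adjusted p of 0.000374, 0.0488 and 1.13e-05), only the last of which held with the closest pairs averaged.

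The 30 nearest tested genes on each side, other than olfactory receptors, were counted too. In the 2 comparisons with Cd72+/-;Pax5+/- the called genes lay mostly before the stretch, but not in Pax5+/- against WT. Before the stretch, limma called 0 higher (2 at an unadjusted p under 0.05) and 3 lower in Pax5+/- against WT; 5 rose and 1 fell in Cd72+/-;Pax5+/- against WT, and 7 rose and 1 fell between the mutants, where 4.12% and 4.44% of all clusters rose in these last 2 comparisons. After it the counts were 2 and 2, 2 and 0 (3 lower unadjusted), and 1 and 1. Over all clusters, limma called 4.28% higher and 3.2% lower in Pax5+/- against WT. It called 3.66% and 5.35% lower in the 2 comparisons with Cd72+/-;Pax5+/-. With the closest pairs averaged, 1 of 3, 2 of 6 and 4 of 8 calls before the stretch held. After it, 0 of 4, 0 of 2 and 1 of 2 held. Called changes over 2-fold were those of Slamf6, Cd84 and Cd48, receptors of the Slam family that lie 27 to 30 tested genes before Aim2, and of Sccpdh, 27 tested genes after the family. Slamf6 rose in Cd72+/-;Pax5+/- by 3.86 against WT (SE 0.114, limma adjusted p = 4.61e-10) and by 4.10 against Pax5+/-. Cd84 (-2.62) and Cd48 (-1.75) fell in Pax5+/- against WT and rose between the mutants (2.17 and 2.64), the fall of Cd48 and the rise of Cd84 not holding with the closest pairs averaged (limma adjusted p = 0.1041 and 0.0534). Sccpdh rose in Pax5+/- (1.15) and fell between the mutants (-1.11), and neither held there (limma adjusted p = 0.1128 and 0.09623).

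**Figure D3:**
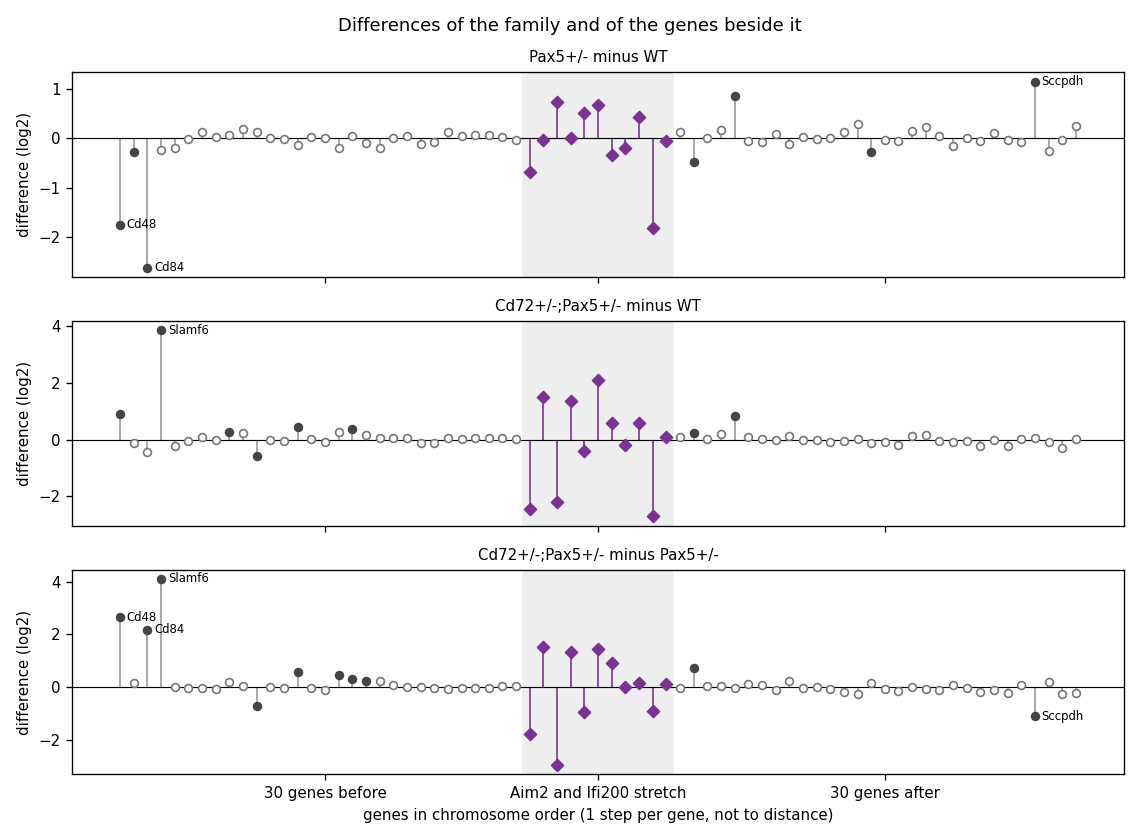
Log2 difference (y axis) of the Aim2 and Ifi200 genes (diamonds, grey band) and of the 30 nearest tested genes on each side (circles, filled where the limma adjusted p was under 0.05) in chromosome order (x axis, 1 step per gene), in 3 comparisons. The 3 nearest genes on each side of the band lie near 0, except Fmn2 after it (-0.48, 0.23 and 0.71). The largest differences outside the band belong to Slamf6 (3.86 against WT), Cd84 and Cd48 at the far left.

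The profile over the 12 arrays was compared between genes after centring each on its own mean, by the root mean square (RMS) difference in log2 units; a lower value is a closer likeness. Among members, Ifi206 and Ifi213 were closest (RMS 0.303), followed by Ifi206 and Ifi208 (0.417) and Ifi213 and Ifi208 (0.483). Aim2 was closest to Ifi202b (0.671, where the profile of Aim2 itself has an RMS of 1.04). Ifi214 was closest to Ifi209 (0.989, own RMS 1.54). Both had WT arrays 1 and 3 above 2 and 4, but WT arrays 2 and 4 lay above the Cd72+/-;Pax5+/- arrays for Ifi214 and below them for Ifi209. These likenesses follow from the group differences that chose the members and are given as a description.

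Outside the family, the 3 genes most like Aim2 were Tasor (RMS 0.329), Adgra3 (0.332) and P2ry10 (0.339), with means of 7.83, 8.23 and 8.35 in WT and of 5.10, 6.34 and 6.42 in Cd72+/-;Pax5+/-. Those most like Ifi214 were Dntt, the terminal transferase of early B-cell precursors (0.51), 2610008E11Rik (0.515) and Mctp1 (0.661). The 3 genes most like each of the other members are given too, named after their values were seen. Ifi206 was closest to Ifit1 (0.146), Rsad2 (0.158) and Dnah8 (0.163), and Ifi213 to Rtp4 (0.218), Dnah8 (0.276) and Rsad2 (0.29). Ifit1, Rsad2 and Rtp4 are interferon-stimulated genes, and Dnah8 encodes an axonemal dynein. Ifi209 was closest to Ccng2 (0.124), St8sia4 (0.125) and Trp53inp1 (0.126). Ifi208 was closest to Add3 (0.204), Parp12 (0.237) and Enah (0.285), and Ifi203 to Pot1b (0.0957), Hpse (0.102) and Slc49a4 (0.115). For Ifi202b they were Crhbp (0.375), Myh10 (0.391) and Eng (0.47).

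Among inflammasome genes, the adaptor, protease and pore protein that act with Aim2 were called higher in some comparisons with WT. The falls against WT were those of 2 sensors of other inflammasomes. Such sensors also rose against WT: Nlrp3 in Pax5+/- and Nlrp1b in Cd72+/-;Pax5+/-. Of 16 genes, which include such sensors, 4 rose and 0 fell in Pax5+/- against WT (2 lower at an unadjusted p under 0.05 in limma), 3 rose and 2 fell in Cd72+/-;Pax5+/- against WT, and 3 rose and 3 fell between the mutants, with list medians of 0.03, -0.02 and -0.04. Over all clusters, limma at an adjusted p under 0.05 called 4.28% higher and 3.2% lower in the first comparison, 4.12% and 3.66% in the second, and 4.44% and 5.35% in the third. Pycard, the adaptor that Aim2 recruits, rose where Aim2 was lowest: its means were 6.46, 6.70 and 7.13, a rise of 0.67 in Cd72+/-;Pax5+/- over WT (SE 0.0586, limma adjusted p = 9.56e-06) and of 0.43 over Pax5+/- (0.000339; 0.07064 with closest pairs averaged). Its rise of 0.24 in Pax5+/- (limma adjusted p = 0.0229) was lost without any 1 of Pax5+/- replicates 1 or 3 or WT replicates 1, 2 or 4.

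Casp1, the protease of the complex, rose by 0.74 in Pax5+/- (limma adjusted p = 0.0326) and by 0.75 in Cd72+/-;Pax5+/- (0.0309) over WT. The first was lost without any 1 of Pax5+/- replicate 3, WT replicates 2, 3 or 4 or Cd72+/-;Pax5+/- replicate 3, and the second without any 1 of WT or Cd72+/-;Pax5+/- replicates 1, 3 or 4. Gsdmd, the pore-forming substrate, rose by 0.58 in Pax5+/- (limma adjusted p = 1.46e-05) and was lower by -0.40 in Cd72+/-;Pax5+/- than in Pax5+/- (0.00029; 0.05225 with closest pairs averaged). Nlrp3, the sensor of another inflammasome, rose by 1.07 in Pax5+/- (limma adjusted p = 1.45e-05) and fell in Cd72+/-;Pax5+/-, by 0.72 against WT (0.000464) and by 1.79 against Pax5+/- (1.22e-07). Nlrp1a, a further sensor, fell by 1.25 in Cd72+/-;Pax5+/- against WT (limma adjusted p = 1.97e-05). Nlrp1b rose there by 0.32 against WT (limma adjusted p = 0.00201) and by 0.34 against Pax5+/- (0.00102). Neither rise held with the closest pairs averaged (limma adjusted p = 0.1719 and 0.1253). The cytokines that the complex matures passed in no comparison, with means of 5.51, 5.53 and 5.48 for Il1b and 5.37, 5.32 and 5.27 for Il18, all under 5.762, the level below which 25% of clusters have their mean.

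Genes of other nucleic acid sensing routes also split. Of 21, 2 rose and 3 fell in Pax5+/- against WT, 4 rose and 2 fell in Cd72+/-;Pax5+/- against WT, and 5 rose and 2 fell between the mutants (medians 0.11, 0.10 and 0.03). With the closest pairs averaged, 2 of 5, 1 of 6 and 4 of 7 of these calls held, among them those named here. Cgas, the other main sensor of cytosolic DNA, rose by 0.61 in Cd72+/-;Pax5+/- over WT (SE 0.0622, limma adjusted p = 3.78e-05) and by 0.45 over Pax5+/- (0.000399), so it went opposite to Aim2 there. Sting1, the adaptor below Cgas, had means of 10.96, 11.12 and 10.92 and passed in no comparison. Samhd1, which degrades nucleotides, rose by 1.33 in Pax5+/- over WT (limma adjusted p = 4.14e-06) and was at the WT level in Cd72+/-;Pax5+/- (8.04 against 8.03). Tlr7, an endosomal RNA receptor, fell by 1.37 in Pax5+/- (limma adjusted p = 9.01e-08), and Ifih1, a cytosolic RNA sensor, rose by 1.32 in Cd72+/-;Pax5+/- over Pax5+/- (4.7e-06).

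Some of the interferon-stimulated genes rose in Cd72+/-;Pax5+/- cells, and none of the interferon genes measured was called. Of 8 interferon genes, 0 were called in any comparison by limma, and 0 had an unadjusted p under 0.05; their list mean stayed within 6.31 to 6.46 on all 12 arrays. Of 27 interferon-stimulated genes other than members, 1 rose and 5 fell in Pax5+/- against WT, while 11 rose and 0 fell in Cd72+/-;Pax5+/- against WT and 17 rose and 0 fell between the mutants (medians -0.10, 0.44 and 0.41; at an unadjusted p under 0.05, 1 and 0 were lower). Rsad2, an antiviral enzyme, rose by 1.55 in Cd72+/-;Pax5+/- over WT (SE 0.0665, limma adjusted p = 1.4e-08), and Ifit1, which binds viral RNA, by 1.41 (1.13e-05), close to the 1.51 of Ifi206. With the closest pairs averaged, 0 of the 6 calls in Pax5+/- against WT held. Of the 11 in Cd72+/-;Pax5+/- against WT, 2 held (Ifit1 and Rsad2), and of the 17 between the mutants, 5 (also Bst2, Ifit3 and Mx2). Of 15 interferon signalling genes, Irf9 (0.76, limma adjusted p = 0.000683) and Irf7 (0.84, 0.000705) rose and Irf8, Ifnar1, Irf1 and Ifnar2 fell in Cd72+/-;Pax5+/- against WT, none of which held with the closest pairs averaged. In Pax5+/- against WT, 1 of these rose (Ifngr1, 0.61) and 1 fell (Irf1, -0.48, lost without Pax5+/- replicate 2), and between the mutants 3 rose and 3 fell. None of these 2 and 6 calls held with the closest pairs averaged.

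**Figure D4:**
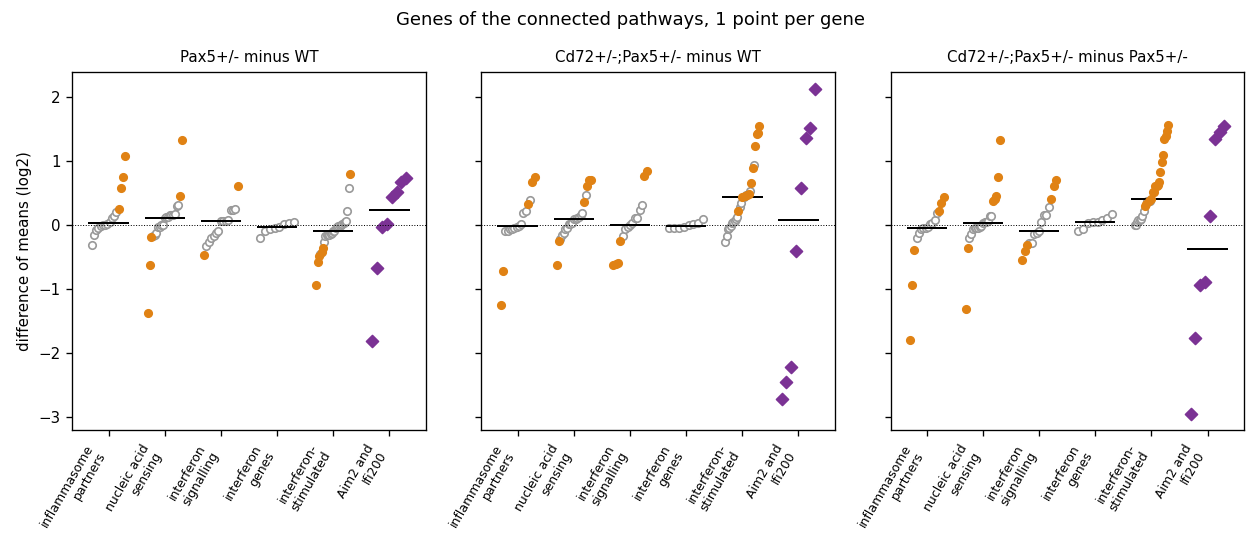
Log2 difference (y axis) of each gene of 5 connected lists (circles, filled where the limma adjusted p was under 0.05) and of the 8 members (diamonds, not tested), in 3 comparisons; short lines are list medians. The interferon-stimulated genes lie mostly above 0 in Cd72+/-;Pax5+/- (median 0.44 against WT), the interferon genes near 0, and the members spread from -2.71 to 2.13.

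Markers of other cells moved with some of these results. A lower signal in bulk cells can come from fewer cells of a type or from less RNA per cell, which cannot be told apart here. In WT, the arrays with more Ifi214 and Ifi209 (1 and 3) had a higher mean over 13 B-lineage markers (11.82 and 11.86 against 10.99 and 10.94), over 12 monocyte and macrophage markers (6.75 and 6.81 against 6.32 and 6.32) and over 10 stromal and endothelial markers (8.38 and 8.36 against 7.87 and 7.91). Ifi202b was lower on those arrays. In Pax5+/- the stromal mean was 8.03 and 8.10 on arrays 1 and 3 and 7.34 and 7.37 on 2 and 4, while Ifi214 lay within 8.49 to 8.73 on all 4 and Ifi202b was higher on 1 and 3. The part of these markers in the members' differences was not tested.

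The Cd72+/-;Pax5+/- arrays, which hold the lowest Aim2, Ifi202b and Ifi214, had stromal and endothelial means of 7.13 to 7.35, below WT and overlapping the 2 lower Pax5+/- arrays, with 3 of 10 markers called lower than in WT (Alpl, Cxcl12 and Sparc) and 0 higher. Their monocyte and macrophage mean was 6.43 to 6.49, within the WT range. By limma, Mpeg1 (log2 1.45) and Cd68 (0.36) were higher and Ccr2 (-3.58) lower than in WT. Against Pax5+/-, Cd68 was higher and Ccr2 and Mpeg1 were lower. In Pax5+/- against WT, Mpeg1 (2.465) and Itgam (0.89) were higher. Csf1r, Adgre1 and Cd14, also macrophage markers, passed in no comparison, with group means of 6.60 to 6.64, 5.19 to 5.21 and 5.75 to 5.83. Means over granulocyte, conventional dendritic, T-cell, natural killer and erythroid markers stayed within 5.57 to 6.38 on all arrays, and those over 6 plasmacytoid dendritic markers within 6.78 to 7.01. Among these, limma called Nkg7, Cox6a2 and Ccr9 higher and Bst2 lower in Pax5+/- than in WT. Cox6a2 was also called higher in Cd72+/-;Pax5+/- than in WT. Between the mutants, Bst2 was called higher and Nkg7, Cd5 and Ccr9 lower in Cd72+/-;Pax5+/-. Of 5 markers of mature B cells, Cd74 and H2-Aa rose in Cd72+/-;Pax5+/- over WT (limma adjusted p = 1.74e-06 and 2.19e-05). The other 3 (Ms4a1, Cr2 and Fcer2a) passed in no comparison. Dntt, a B-lineage marker, fell by 2.34 in Cd72+/-;Pax5+/- against WT (limma adjusted p = 0.00515). Its WT arrays read 11.93, 9.76, 11.92 and 9.82, against 8.29 to 8.85 in Cd72+/-;Pax5+/-. The fall was thus larger from WT arrays 1 and 3 than from 2 and 4. The call of Dntt was not recomputed with the closest pairs averaged. The part of all these markers in the members' differences was not tested either.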

How the data were processed

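RNA of 12 samples was hybridised to 12 arrays, 4 per group, with groups taken from the sample titles. Per transcript cluster, the authors deposited a log2 signal (3.67 to 14.73, array medians 6.91 to 7.005), made with the Transcriptome Analysis Console 4.0.3 per the series' design text and the submitters' processing notes. How background was corrected, how arrays were normalized and on which genome build is not given in the sources used here. The study's own threshold was p under 0.05 with over 2-fold change. Symbols came from the platform annotation, and gene order and promoters from RefSeq (GRCm38.p6).

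A mean per group was fitted to all 23410 clusters with a symbol in limma 3.58.1 (R 4.3.3, empirical Bayes, two-sided), with p-values adjusted over all of them by Benjamini-Hochberg and called under 0.05. No filter or further normalization was applied. A gene with several clusters is represented by that with the highest mean. SEs are moderated; SDs are over 4 arrays. The script was tested on simulated data with independent arrays, which does not cover the closely alike pairs of arrays seen here. Promoters were aligned with Biopython 1.88. Python 3.11.15, pandas 2.3.3 and matplotlib 3.10.9 were used. The number of arrays limits the precision.

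The members and lists were chosen with earlier results of these data known. Named are all members, other family genes, up to 4 called genes with the smallest adjusted p and up to 2 that did not pass per list and comparison, neighbours called over 2-fold and the 3 nearest per side, and the 3 genes most like Aim2 and Ifi214. Alternatives were quantile normalization, arrays shifted to 1 median, exclusion of dim clusters, omission of each array, the closest pairs averaged, WT arrays 1 and 3 or 2 and 4 only, all clusters, another prior, only the groups compared and the study's threshold.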

Additional observations from a re-analysis of the deposited data

Results flagged for a closer look

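Among the 33 groups of 4 arrays formed by the members, Ifi207 and Ifi205, 1 held an array far from the other 3. Ifi206 in Cd72+/-;Pax5+/- read 6.80 on replicate 4 and 6.19 to 6.25 on the other 3. Chance alone gives such an array in about 1 of 20 groups. Without replicate 4 the difference of Ifi206 in Cd72+/-;Pax5+/- was 1.37 from WT and 1.39 from Pax5+/-, instead of 1.51 and 1.54.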

How the results depend on the processing

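The members' differences were recomputed under each alternative: 482 values moved by less than the spread between replicates, 15 by more, and 1 by more, from -0.20 to the other sign (the Ifi204 and Ifi211 cluster in Cd72+/-;Pax5+/- against WT, 0.005 with WT arrays 2 and 4 only). The 482 include values that could not move. Averaging pairs, dropping dim clusters and using the mean of all clusters of a gene leave these differences as they are. So does omission of an array outside the groups compared, or a choice of WT arrays for the difference between the mutants. In all, 18 values took the other sign. Of these, 13 belong to differences under 0.05, and the other 5 to Ifi214, Ifi209 and the Ifi204 and Ifi211 cluster against WT with 1 pair of WT arrays alone. In the order of the comparisons above (Pax5+/- with WT, Cd72+/-;Pax5+/- with WT, and the mutants), 4, 7 and 8 members did not overlap. Omission of 1 array cannot make separate groups overlap, and it added no member to these counts. A filter on dim clusters, which drops Ifi206, Ifi208, Ifi213 and Ifi202b, left 2, 3 and 4. The clusters called over the whole array (1749, 1821 and 2292) numbered 282, 290 and 420 with the closest pairs averaged, which leaves 2 values per group, and raised the share higher in the first comparison from 57.2% to 68.4%. WT arrays 1 and 3 only gave 3645 in the second comparison and 3762 between the mutants, and WT arrays 2 and 4 only gave 4184 in the first and 3711 between the mutants. An unadjusted p under 0.05 with over 2-fold change gave 224, 214 and 280. Omission of 1 array gave 1338 to 1959, 1257 to 2052 and 1667 to 2469. For the other genes recomputed, 3321 values stayed as they were, called or not called, while 265 lost a call and 62 gained one. No paired analysis was possible because the groups share no replicate numbers in the labels. Members near the bottom of the array's range, Ifi202b in Cd72+/-;Pax5+/- and Ifi206 in the other groups, may not show a lower level.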
